A study of Mus musculus with 12 samples.

Results

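Spermatogonia are isolated from the testis with antibodies to proteins on their surface, and 8 genes that encode such proteins (*Kit*, *Cd9*, *Thy1*, *Itga6*, *Itgb1*, *Epcam*, *Cdh1* and *Mcam*) were followed here as RNA. They were chosen by name, as proteins used to sort spermatogonia, and all 8 were found among the 55385 genes of the deposited table. RNA-seq of sorted mouse spermatogonia gave 12 libraries in 6 groups of 2. Adult male WT C57BL/6 mice gave undifferentiated spermatogonia (Aundiff, sorted as E-Cadherin+ CD9 high KIT-) and early differentiating spermatogonia (Adiff, sorted as E-Cadherin+ CD9 medium KIT+). Mice on a mixed C57BL/6 and FVB/NJ background gave Aundiff of PRC1cKO (Ring1-/-; Rnf2 F/-; Ddx4-Cre) and of littermate PRC1ctrl (Ring1-/-; Rnf2 F/+; Ddx4-Cre). Both of these genotypes lack *Ring1*, and the Cre is driven by *Ddx4*, a germ cell gene, so deletion of *Rnf2* is directed to germ cells. The PRC1 mice were examined at 2 months without treatment and, separately, after Win18446, an inhibitor of retinoic acid synthesis given from 1 month of age in about 30 daily injections of 50 ul at 40 ug/ul. Cells of a library were pooled, and 2 independent replicates were made of each group. WT and Win18446 libraries were made with a stranded mRNA kit, and the untreated PRC1 libraries with a low-input kit based on Smart-Seq2, so that treatment and kit cannot be told apart across the PRC1 libraries, and strain, *Ring1* genotype and treatment cannot be told apart between WT and Win18446.

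Of the 8 proteins, 3, KIT, CD9 and E-cadherin (the product of *Cdh1*), were the antibody targets of this sort. Their RNA therefore describes the cells that the gate let through. KIT is the receptor tyrosine kinase for stem cell factor, and its appearance marks the retinoic acid-driven step from undifferentiated to differentiating spermatogonia. CD9 is a tetraspanin, a membrane protein that gathers integrins and other proteins into microdomains, and E-cadherin joins neighbouring cells through catenins. The other 5 have been used for enrichment elsewhere: integrin alpha6 and beta1 (*Itga6*, *Itgb1*) pair as a laminin receptor, THY1 is a small immunoglobulin-like protein held by a GPI anchor, EPCAM is an epithelial adhesion protein cut by proteases to release an intracellular part, and MCAM is an adhesion protein of the immunoglobulin superfamily. PRC1 is a Polycomb complex that ubiquitinates histone H2A and holds developmental genes silent, and Polycomb complexes are known to gather mainly at CpG-rich promoters. RNF2 and RING1 are its alternative catalytic subunits.

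All 8 are protein-coding genes whose coordinates in the annotation of the files were the same in gencode vM21 (GRCm38). *Kit* (ENSMUSG00000005672) lies on the plus strand at chr5:75574916-75656722. *Cd9* (ENSMUSG00000030342) lies on the minus strand at chr6:125460266-125494791, where 10.7% of its exonic bases overlap *Gm26728* on the other strand. *Cdh1* (ENSMUSG00000000303) and *Itgb1* (ENSMUSG00000025809) are both on the plus strand of chromosome 8, at chr8:106603351-106670246 and chr8:128685654-128733200. *Thy1* (ENSMUSG00000032011, chr9:44043384-44048579) and *Mcam* (ENSMUSG00000032135, chr9:44134469-44142727) are both on the plus strand of chromosome 9, with 0.507% of the exonic bases of *Mcam* overlapping *Gm10687* on the other strand. *Itga6* (ENSMUSG00000027111, chr2:71745616-71858416) and *Epcam* (ENSMUSG00000045394, chr17:87635979-87651129) are on the plus strand.

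Promoter sequences of 300 bases (250 before and 50 after a gene start, RefSeq, GRCm38.p6) were matched for *Kit*, *Cd9*, *Itgb1*, *Epcam* and *Mcam*. Those of *Kit* and *Epcam* are shown because these genes were higher both in Adiff than in Aundiff and in PRC1cKO than in PRC1ctrl, and that of *Mcam* because it was lower in Adiff and held the most GC boxes. They are written 5′ to 3′ on the strand of the gene, with every GC box (GGGCGG, or CCGCCC on the other strand) in capitals.
Kit, chr5:75574737-75575036, plus strand: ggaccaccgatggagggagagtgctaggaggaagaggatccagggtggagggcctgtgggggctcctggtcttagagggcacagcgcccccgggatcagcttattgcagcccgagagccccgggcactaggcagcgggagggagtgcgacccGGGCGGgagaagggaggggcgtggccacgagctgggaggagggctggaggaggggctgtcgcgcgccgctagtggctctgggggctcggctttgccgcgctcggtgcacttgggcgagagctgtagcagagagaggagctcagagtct
Epcam, chr17:87635729-87636028, plus strand: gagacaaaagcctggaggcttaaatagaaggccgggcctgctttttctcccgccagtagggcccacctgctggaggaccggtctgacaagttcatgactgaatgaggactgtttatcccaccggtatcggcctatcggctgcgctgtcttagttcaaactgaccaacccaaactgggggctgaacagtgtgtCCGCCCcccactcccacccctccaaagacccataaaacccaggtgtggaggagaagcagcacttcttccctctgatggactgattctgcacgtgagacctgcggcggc
Mcam, chr9:44134408-44134707, plus strand: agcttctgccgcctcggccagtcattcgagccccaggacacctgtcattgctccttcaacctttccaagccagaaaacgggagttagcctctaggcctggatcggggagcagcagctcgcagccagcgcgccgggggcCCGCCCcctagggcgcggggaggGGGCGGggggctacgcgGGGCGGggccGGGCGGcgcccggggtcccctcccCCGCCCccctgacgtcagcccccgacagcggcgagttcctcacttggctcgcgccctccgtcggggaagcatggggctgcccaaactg
The *Kit* promoter held 20 CpG dinucleotides and 1 GC box at 69% G and C, *Epcam* 11 CpG and 1 GC box at 57%, and *Mcam* 29 CpG and 5 GC boxes at 72.7%. *Cd9* held 18 CpG with 2 GC boxes and *Itgb1* 27 CpG with 1 GC box. Over 32851 promoters of this length the median was 7 CpG (quartiles 3 and 20) at 52.7% G and C, and 35.7% held a GC box on either strand, so the number of CpG in all 5 was above the median. An E-box, CACGTG, was found in *Epcam* and in 7.15% of all promoters. Neither TATAAA, present in 13.6% of all promoters on either strand, nor AGGTCA, present in 16.3%, was found in any of the 5. These matches describe letters in the window only.

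The authors gave expression as TPM, a share of each library corrected for transcript length. TPM keeps no number of reads, so the depth behind a value is unknown, and differences were taken on the log2(TPM + 1) scale, which compresses changes of genes near 1 TPM. Between 12422 and 16599 genes a library had a TPM of at least 1. Mitochondrial genes held 4.28% to 16.7% of the TPM, with the 4 untreated PRC1 libraries highest, at 12.5% or above. *Ring1* was between 8.61 and 19.9 TPM in the WT libraries and between 0.03 and 0.25 TPM in the 8 PRC1 libraries, as their shared genotype states. *Rnf2* was not lower in the libraries labelled PRC1cKO (56.7 and 67.5 TPM untreated, 86.2 and 93.1 TPM after Win18446) than in PRC1ctrl (28.3 and 47.6 TPM, then 78.1 and 67.2 TPM). TPM of a whole gene does not separate the floxed part, so this RNA does not check the deletion, and genotypes below are those of the labels.

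Summed over lists, the WT fractions carried the markers of their labels. The summed TPM of 12 markers of undifferentiated spermatogonia (such as *Gfra1* and *Ret*, the receptor for GDNF) was 1066 and 1206 in WT Aundiff and 301 and 342 in WT Adiff. For 10 markers of differentiating spermatogonia (such as *Stra8* and *Esx1*) the sums were 698 and 765 in WT Aundiff and 2191 and 2329 in WT Adiff. Within this list *Ccnd2* went the other way (103 and 115 TPM in Aundiff, 53.6 and 80.4 TPM in Adiff) and *Sohlh1* overlapped. The authors had named several of the listed genes, *Gfra1*, *Stra8* and *Esx1* among them, as changed between these same fractions. The WT sums are therefore a description and not a separate check of the labels. In the untreated Aundiff libraries the undifferentiated markers summed to 910 and 1190 TPM in PRC1ctrl and to 421 and 511 TPM in PRC1cKO, and the differentiating markers to 329 and 468 TPM and then 718 and 975 TPM. Most of the undifferentiated sum in these libraries came from *Sall4* (517 and 704 TPM in PRC1ctrl, 266 and 314 TPM in PRC1cKO), *Nanos3* (286 and 349 TPM, then 92.4 and 80.6 TPM) and *Lin28a* (79.6 and 83.1 TPM, then 34.2 and 53.2 TPM). *Gfra1* (7.18 and 14.97 TPM, then 8.83 and 23.6 TPM) and *Ret* (2.33 and 4.26 TPM, then 2.26 and 6.24 TPM) overlapped between the genotypes. After Win18446 the undifferentiated sums were 988 and 1101 TPM in PRC1ctrl and 749 and 852 TPM in PRC1cKO, and the differentiating sums 753 and 786 TPM and then 884 and 976 TPM. Other cells of the testis were also represented. Spermatid markers summed to 804 and 879 TPM in WT Aundiff and to 549 and 742 in WT Adiff. In untreated PRC1ctrl they summed to 759 and 1781 and in untreated PRC1cKO to 64.2 and 57.9. After Win18446 they summed to 141 and 129 in PRC1ctrl and to 25.5 and 23.7 in PRC1cKO. In bulk samples, fewer cells of a type and less RNA per cell cannot be told apart.

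**Figure D1:**
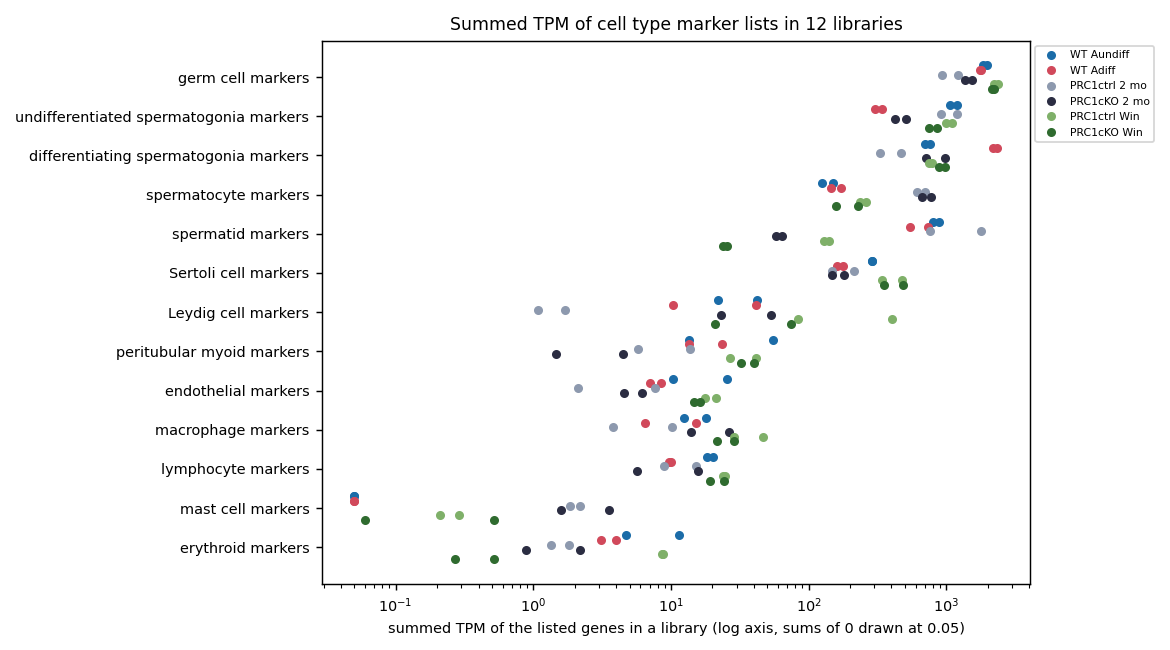
Summed TPM of 13 marker lists (rows) in each of the 12 libraries (points, coloured by group), on a log axis. Spermatid markers were lower in both PRC1cKO groups than in their PRC1ctrl, and Leydig cell markers ranged from 1.08 TPM in untreated PRC1ctrl to 405 TPM in 1 PRC1ctrl library after Win18446.

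The level of each gene in the 6 groups is given first, as a description. *Kit* was highest in WT Adiff, at 247 and 245 TPM. The next group, PRC1cKO after Win18446, had 20.35 and 21.96 TPM, and untreated PRC1cKO had 10.7 and 14.9 TPM. *Kit* was 6.48 and 8.15 TPM in PRC1ctrl after Win18446 and 6.38 and 6.96 TPM in WT Aundiff, and these neighbours overlapped. Untreated PRC1ctrl had the lowest *Kit*, at 1.64 and 3.30 TPM. The mean of WT Adiff was 11.6 times that of PRC1cKO after Win18446, the highest Aundiff group.

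*Cd9* followed another order. It was highest in the untreated PRC1 libraries, at 212 and 355 TPM in PRC1ctrl and 311 and 308 TPM in PRC1cKO, which overlapped. WT Aundiff had 168 and 174 TPM. After Win18446 it was 138 and 122 TPM in PRC1ctrl and 134 and 128 TPM in PRC1cKO, again overlapping, and it was lowest in WT Adiff, at 72.5 and 71.5 TPM.

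*Cdh1*, the third gene of the gate, was scarce in the untreated PRC1 libraries, at 1.49 and 1.57 TPM in PRC1ctrl and 1.82 and 3.72 TPM in PRC1cKO, although these cells were sorted for the protein. WT Adiff had 6.99 and 6.54 TPM and WT Aundiff 16.8 and 18.6 TPM. After Win18446 *Cdh1* was 27.95 and 27.62 TPM in PRC1ctrl and 26.9 and 30.9 TPM in PRC1cKO, the highest and overlapping groups. The 4 untreated PRC1 libraries were thus below the other 8 in *Cdh1* and above them in *Cd9*.

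*Thy1* was highest in WT Aundiff, at 6.51 and 7.54 TPM, and was 0.84 and 0.33 TPM in WT Adiff. It was 4.22 and 4.83 TPM in PRC1ctrl and 3.91 and 5.5 TPM in PRC1cKO after Win18446, and 0.73 and 0.27 TPM in PRC1ctrl and 1.81 and 0.95 TPM in PRC1cKO without treatment. The WT Adiff and untreated PRC1ctrl libraries overlapped, at levels near or under 1 TPM.

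*Itga6* was 64.5 and 64.7 TPM in PRC1ctrl and 51.4 and 55.1 TPM in PRC1cKO after Win18446. WT Aundiff had 50.5 and 47.8 TPM and WT Adiff 24.99 and 26.04 TPM. Untreated PRC1ctrl had 15.9 and 19.9 TPM and untreated PRC1cKO 19.3 and 26.8 TPM, which overlapped each other and, for PRC1cKO, WT Adiff. Its partner *Itgb1* was highest in WT Adiff instead, at 122 and 114 TPM, overlapping PRC1ctrl after Win18446 (116 and 99.5 TPM). *Itgb1* was 98.6 and 96.2 TPM in PRC1cKO after Win18446, 78.1 and 74.1 TPM in WT Aundiff, 52.5 and 55.6 TPM in untreated PRC1cKO and 34.1 and 51.1 TPM in untreated PRC1ctrl.

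*Epcam* was highest in untreated PRC1cKO, at 291 and 250 TPM. Untreated PRC1ctrl (111 and 136 TPM) and WT Adiff (110 and 121 TPM) overlapped. PRC1cKO after Win18446 had 88.7 and 82.2 TPM, WT Aundiff 40.8 and 42.3 TPM, and PRC1ctrl after Win18446 had 29.4 and 31.2 TPM. *Mcam* was the most abundant of the 8 RNAs in WT Aundiff, at 319 and 343 TPM, and was 154 and 175 TPM in WT Adiff. After Win18446 it was 112 and 119 TPM in PRC1ctrl and 123 and 140 TPM in PRC1cKO, while the untreated libraries had 8.60 and 14.6 TPM in PRC1ctrl and 7.78 and 22.2 TPM in PRC1cKO.

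**Figure D2:**
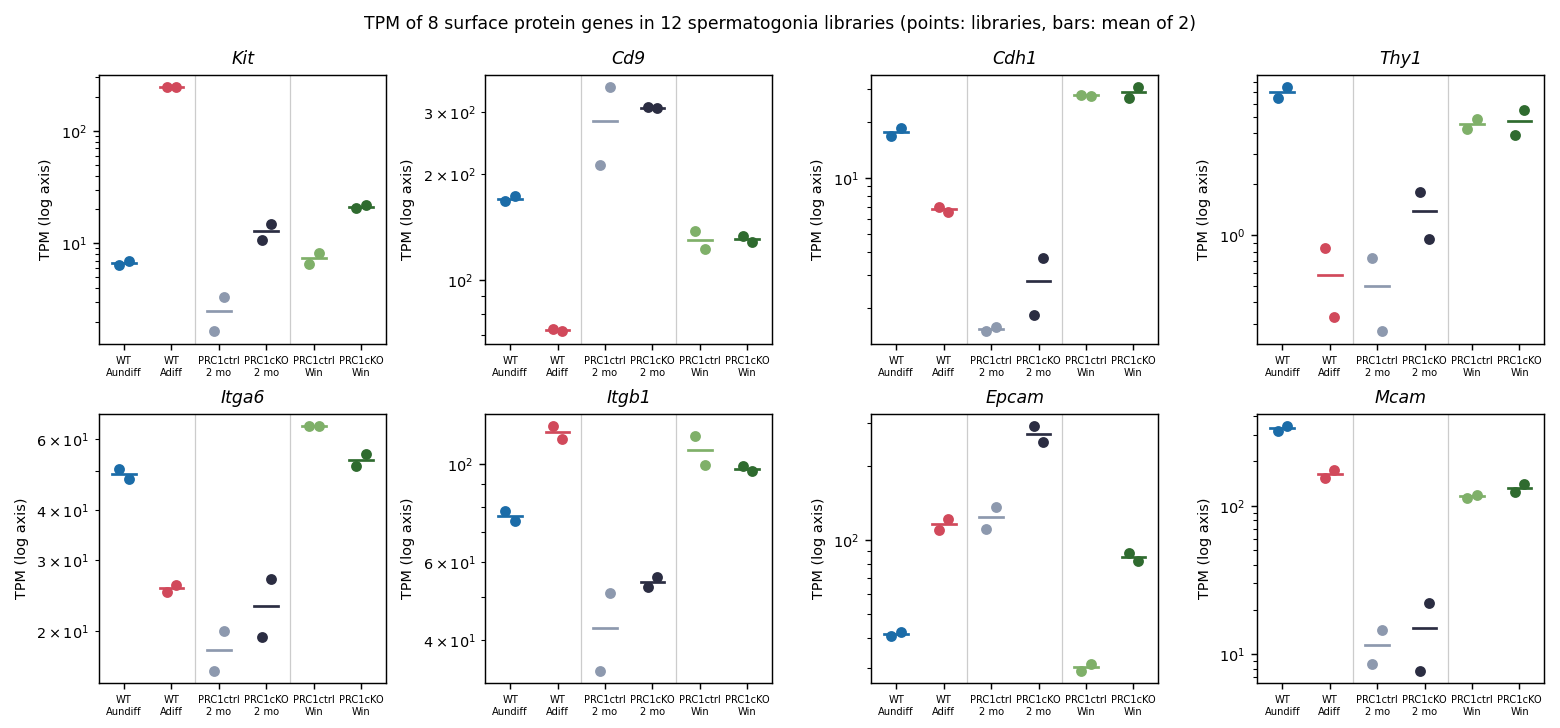
TPM of the 8 genes (panels) in each library of the 6 groups, on log axes, with points for libraries and bars for the mean of 2. *Kit* and *Epcam* were higher in PRC1cKO than in PRC1ctrl libraries with and without Win18446, without overlap, whereas *Cd9* overlapped between genotypes in both.

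The first comparison asked how the 8 genes differ between Adiff and Aundiff of WT mice. *Epcam* rose and *Thy1* and *Mcam* fell among the 5 genes that the gate did not use, and of the 3 antibody targets *Kit* was higher and *Cd9* and *Cdh1* were lower in Adiff. Genes were called at a Benjamini-Hochberg adjusted p below 0.05 and an absolute log2 difference above 1 in limma, which called 11.1% of all tested genes higher and 9.24% lower. Of the 5 genes that the gate did not use, 1 was called higher and 2 lower. The antibody targets are left out of this count because the sort set their proteins. With 2 libraries a group an exact permutation test over samples could give no two-sided p below 0.333, so calls rest on limma, which shares the estimate of the spread over genes.

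Among the antibody targets the values describe the gate and no p is given for them. *Kit* was higher in both Adiff libraries than in any other library, with a log2 difference of 5.01 ± 0.14 (SE, n = 2 per group). *Cd9* was lower by a log2 difference of -1.23 ± 0.12, and its mean in Adiff was 42.2% of that in Aundiff, in the direction of the medium and high gates. *Cdh1* was lower by -1.26 ± 0.19, at 38.3% of its Aundiff mean, although both fractions were gated as E-Cadherin+.

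The remaining 5 genes divided in direction. *Epcam* rose by 1.45 ± 0.13 on the log2 scale (limma adjusted p = 0.00135). *Thy1* fell by 2.36 ± 0.28 (limma adjusted p = 0.00258), to 8.33% of its Aundiff mean. *Mcam* fell by 1.01 ± 0.12 (limma adjusted p = 0.00272), just past the threshold of 1, and its call was lost without replicate 2 of Aundiff (log2 difference -0.96) or replicate 1 of Adiff (-0.92). *Itga6* had a log2 difference of -0.92 ± 0.14 (limma adjusted p = 0.00536), under the fold threshold, and was called under median-of-ratios scaling (-1.09). *Itgb1* had a difference of 0.62 ± 0.13 (limma adjusted p = 0.0118), also under the threshold. The 2 chains of the laminin receptor therefore differed in opposite directions, with no overlap between fractions for either. Within a library, *Itga6* TPM divided by *Itgb1* TPM was 0.646 and 0.644 in Aundiff and 0.205 and 0.229 in Adiff.

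Other cells of the testis also carry some of these proteins. Mast cells carry KIT, and all 6 mast cell markers were at 0 in the 4 WT libraries. T lymphocytes carry THY1. The 8 lymphocyte markers summed to 20.2 and 18.3 TPM in Aundiff and to 9.67 and 10.0 TPM in Adiff, and *Lck* held most of each sum. Of 3 tested 1 was called lower, *Cd79a*, and *Lck* had a difference of -0.84 (limma adjusted p = 0.0194). *Cd3e* went the other way without overlap (1.71 and 1.24 TPM in Aundiff, 2.04 and 1.99 TPM in Adiff) and was not called. *Cd3g* was at 0 in all 4. Vessels and peritubular cells carry MCAM. Endothelial markers summed to 10.4 and 25.5 TPM in Aundiff and to 8.53 and 7.08 TPM in Adiff (limma, 1 of 6 tested lower, *Tek*, and 3 of 6 at an unadjusted p below 0.05), and peritubular myoid markers to 13.6 and 55.1 TPM and then 13.6 and 23.7 TPM (limma, 0 of 6 lower and 0 of 6 at an unadjusted p below 0.05). Sertoli cell markers summed to 288 and 287 TPM in Aundiff and to 177 and 160 TPM in Adiff (limma, 1 of 6 tested lower, *Rhox5*, and 4 of 6 at an adjusted p below 0.05). Of all 15470 genes tested in WT, 7593 had an unadjusted limma p below 0.05 and 5892 an adjusted one, so these counts stand beside large shares of all genes. Of 6 tested macrophage markers 1 was called lower, *Mrc1* (-1.13, limma adjusted p = 0.0238). *Cd68* was lower without overlap and not called. *Lyz2* (-0.59) and *C1qb* (-0.04) had differences below 0 and *C1qa* (0.47) and *C1qc* (0.29) above 0, each with overlap. Of 4 tested erythroid markers 1 was called lower, *Hba-a1* (-1.83, limma adjusted p = 0.00967). The part of these cells in the *Thy1*, *Mcam* and other WT differences was not tested.

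The median log2 difference of all tested genes was 0.15 in this comparison, 0.22 between untreated PRC1cKO and PRC1ctrl, -0.19 between them after Win18446 and -0.41 in the interaction, and median-of-ratios scaling brought these to -0.0033, -0.0053, -0.0026 and 0.06. The WT directions of all 8 genes held under that scaling. It also moved the split of all calls, from 1724 higher and 1430 lower to 1162 and 1750 in WT, and from 506 and 914 to 839 and 304 in the interaction. After Win18446 quantile normalization moved it from 210 and 1807 to 587 and 879. In untreated mice the 31 genes called higher and 270 lower became 124 and 44 without replicate 2 of PRC1ctrl.

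The second comparison asked how Aundiff labelled PRC1cKO differ from PRC1ctrl at 2 months. *Kit* and *Epcam* were higher in both PRC1cKO libraries than in both PRC1ctrl libraries, but neither passed the threshold. limma called 0.222% of tested genes higher and 1.94% lower, and 0 of the 7 tested members. Of these members 2 had an unadjusted limma p below 0.05, beside 1985 of all 13953 tested genes. *Thy1* was not tested, since it reached 1 TPM in only 1 library. For *Kit*, *Cd9* and *Cdh1*, targets of the sort, the values describe cells within the same gate in both genotypes.

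*Kit* had a log2 difference of 2.02 ± 0.46 (95% interval 0.86 to 3.18, limma adjusted p = 0.113). Its mean was 12.8 TPM in PRC1cKO and 2.47 TPM in PRC1ctrl. It was called under median-of-ratios scaling (1.80, limma adjusted p = 0.0371) and under quantile normalization (1.91, limma adjusted p = 0.0317). *Epcam* had a difference of 1.13 ± 0.25 (interval 0.51 to 1.74, limma adjusted p = 0.0997), with means of 270 TPM in PRC1cKO and 123 TPM in PRC1ctrl. Neither median-of-ratios scaling (0.85, limma adjusted p = 0.334) nor quantile normalization (0.997, limma adjusted p = 0.0719) called *Epcam*. The fit over all 12 libraries called both genes (limma adjusted p = 0.00106 for *Kit* and 0.00217 for *Epcam*). So did a replicate block (limma adjusted p = 0.00045 for *Kit* and 0.000761 for *Epcam*), which took all genes called from 301 to 2172. The replicate numbers state no shared animal or day.

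The other 5 tested genes had differences between 0.17 and 0.53, with intervals that included 0. These were 0.53 for *Cdh1* (-0.56 to 1.62), 0.36 for *Itgb1* (-0.47 to 1.20), 0.34 for *Itga6* (-0.60 to 1.28), 0.22 for *Mcam* (-1.27 to 1.71) and 0.17 for *Cd9* (-0.58 to 0.93), and those of *Mcam* and *Cd9* changed sign under median-of-ratios scaling. The intervals of *Itga6*, *Itgb1*, *Cdh1* and *Mcam* reach past a log2 difference of 1, so a change of that size is not left out for them. Beside these values, 4 of 6 tested spermatid markers and 2 of 8 spermatocyte markers (*Pgk2* and *Ldhc*) were called lower in PRC1cKO. The spermatocyte list had a median log2 difference of 0.096. Of its other members *Sycp1*, *Sycp3*, *Hormad1* and *Ccna1* were higher and *Spo11* lower without overlap, none called, and *Piwil1* overlapped. Leydig cell markers summed to 23.2 and 53.0 TPM in PRC1cKO and 1.08 and 1.69 TPM in PRC1ctrl. Of 6 tested Leydig cell markers 1, *Hsd3b1*, was called higher (0 and 0.37 TPM in PRC1ctrl, 8.74 and 6.63 TPM in PRC1cKO). Leydig cells can carry KIT. Of the differentiating spermatogonia markers 0 of 9 tested were called (limma, *Esx1* at 1.95, adjusted p = 0.168), and of the undifferentiated ones 1 of 12 was lower, *Nanos3* (-1.86). The part of these markers in the *Kit* and *Epcam* differences was not tested.

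The third comparison repeated this after Win18446, where differentiation driven by retinoic acid is blocked. *Kit* and *Epcam* rose in Aundiff labelled PRC1cKO, and none of the other 6 genes was called. limma called 1.27% of tested genes higher and 10.9% lower, and 2 of the 8 members, both higher. *Kit* is an antibody target, and both genotypes were sorted as KIT-, so its RNA describes cells within that gate. The paper reports more spermatogonia of intermediate KIT in PRC1cKO, also after Win18446. The part of the gate in the *Kit* difference was not tested. *Kit* rose by 1.42 ± 0.16 (interval 1.04 to 1.80, limma adjusted p = 0.00263) and *Epcam* by 1.47 ± 0.12 (1.19 to 1.74, limma adjusted p = 0.00176). Both calls were made in every alternative run, including those without each library.

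*Kit* in PRC1cKO, at a mean of 21.2 TPM, was 2.89 times its PRC1ctrl mean. *Epcam*, at 85.5 TPM, was 2.82 times its PRC1ctrl mean of 30.3 TPM. *Itga6* had a log2 difference of -0.27 (interval -0.54 to -0.0087, limma adjusted p = 0.104), and its libraries did not overlap. *Mcam* differed by 0.18 (-0.09 to 0.46) and *Itgb1* by -0.14 (-0.42 to 0.15), or 0.070 under median-of-ratios scaling. *Cd9* (0.01, interval -0.26 to 0.28), *Cdh1* (0.05, -0.26 to 0.36) and *Thy1* (0.03, -0.44 to 0.51) overlapped between genotypes. On TPM without further scaling, the intervals of *Cd9* and *Cdh1* leave out any change of 0.5 or more. The median difference of all tested genes on that scale was -0.19, so these limits depend on the scaling. The antibody targets therefore did not move together: *Kit* differed between genotypes, and *Cd9* and *Cdh1* did not differ beyond their spread. Beside this, Leydig cell markers summed to 74.4 and 21.0 TPM in PRC1cKO and to 405 and 83.5 TPM in PRC1ctrl, and spermatid markers were lower in PRC1cKO (4 of 6 tested). Of 8 spermatocyte markers 2 were called lower, *Pgk2* (-1.72) and *Spo11* (-1.33). Erythroid markers summed to 8.76 and 8.64 TPM in PRC1ctrl and to 0.27 and 0.52 TPM in PRC1cKO, and 3 of 3 tested were called lower. Of 10 markers of differentiating spermatogonia 3 were called higher, *Prss50* (2.22), *Dmrtb1* (1.66) and *Esx1* (1.38). Of the uncalled ones *Tcea3*, *Crabp1* and *Sohlh2* were higher without overlap. *Stra8* was lower without overlap (-0.50, limma adjusted p = 0.046), and *Ccnd2*, *Dnmt3b* and *Sohlh1* overlapped. Of 12 undifferentiated markers 1 was called lower, *Neurog3* (-1.11). The part of these markers in the *Kit* and *Epcam* differences was not tested.

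**Figure D3:**
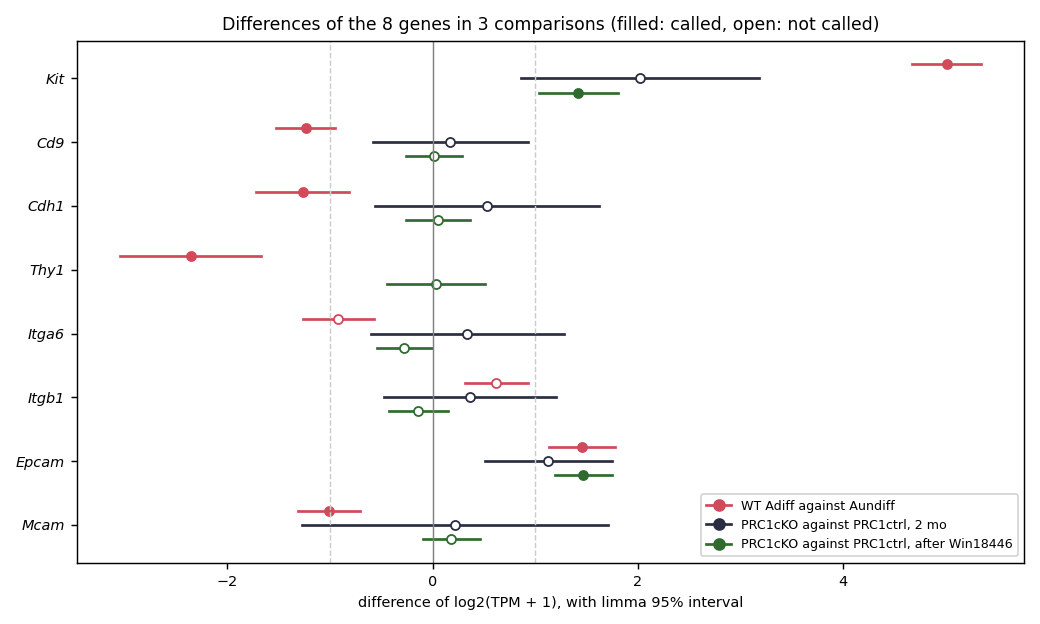
Differences of log2(TPM + 1) with limma 95% intervals for the 8 genes (rows) in the 3 comparisons (colours), filled where called. *Kit* and *Epcam* lie above 0 in all 3, and *Thy1* has no untreated value because it was not tested.

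The interaction, fitted over the 8 PRC1 libraries, asked whether the genotype difference changed with treatment. It called 2.76% of tested genes higher and 4.98% lower, and 0 of the 8 members. The 1420 genes called in all fell to between 21 and 117 when any 1 of the 4 Win18446 libraries was left out. None of the 8 had an unadjusted p below 0.05, the smallest being 0.114 for *Itga6*. *Kit* had an interaction of -0.60 (interval -1.65 to 0.45, limma adjusted p = 0.447) and *Epcam* of 0.34 (-0.29 to 0.96, limma adjusted p = 0.469). Under quantile normalization the *Epcam* interaction was 1.31 and was called (limma adjusted p = 0.0182). The *Kit* interval is wide enough to hold a difference of more than 1 between treatments, and treatment cannot be told apart from the library kit.

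Ratios within a library are free of the scaling between libraries. *Kit* TPM divided by *Cd9* TPM, the RNA counterpart of the gate, was 0.0381 and 0.0401 in WT Aundiff and 3.41 and 3.42 in WT Adiff. In untreated mice it was 0.00774 and 0.0093 in PRC1ctrl and 0.0345 and 0.0483 in PRC1cKO. After Win18446 it was 0.0469 and 0.0666 in PRC1ctrl and 0.152 and 0.171 in PRC1cKO. The ratio was higher in PRC1cKO without overlap in both, and every Aundiff library stayed below 0.2. *Epcam* divided by *Cd9* was 0.243 and 0.244 in WT Aundiff, 1.52 and 1.70 in WT Adiff, 0.522 and 0.384 in untreated PRC1ctrl, 0.934 and 0.812 in untreated PRC1cKO, 0.213 and 0.255 in PRC1ctrl after Win18446 and 0.663 and 0.640 in PRC1cKO after Win18446.

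**Figure D4:**
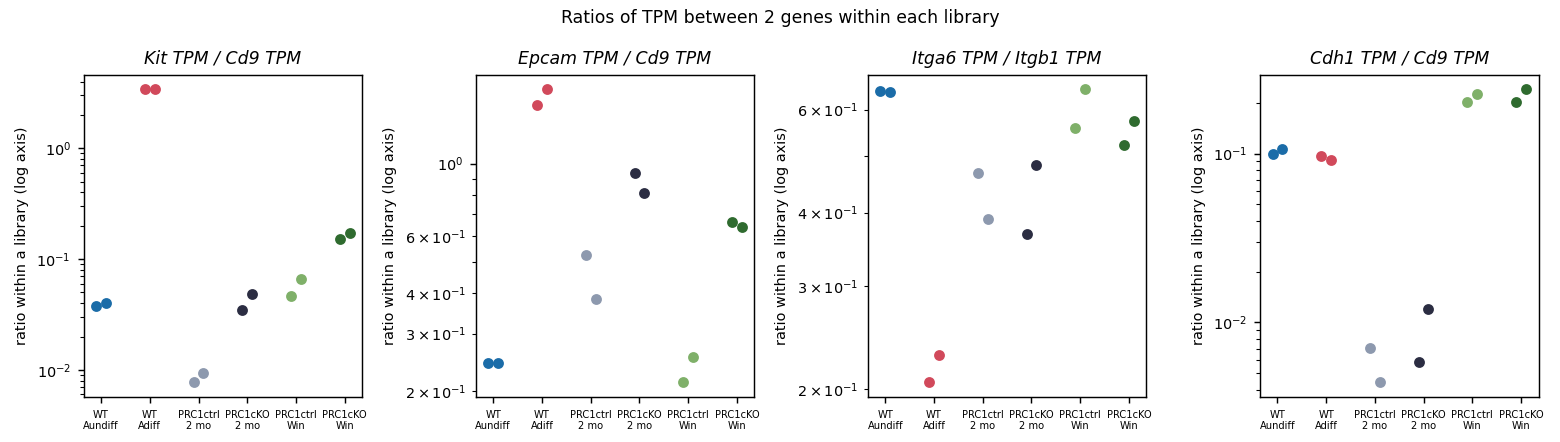
Ratios of TPM of 2 genes in each library (log axes) by group. *Kit* over *Cd9* was 3.41 and 3.42 in WT Adiff and below 0.2 in all Aundiff libraries, and *Itga6* over *Itgb1* was lowest in WT Adiff.

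The relatives and partners of the 8 proteins were examined through 11 lists, whose counts in WT stand beside 11.1% of all tested genes called higher and 9.24% called lower. Median log2 differences in WT, beside 0.15 for all genes, were -0.82 for other surface proteins of undifferentiated spermatogonia, -0.61 for laminins, 0.0063 for integrins, 0.06 for cadherins and catenins, 0.06 for immunoglobulin superfamily proteins, 0.17 for tetraspanins, 0.22 for KIT signalling, 0.26 for CD9 partners, 0.38 for proteins that act on integrins from inside the cell or beside them and 0.38 for the list around EPCAM. Of the integrin subunits, 15 of 26 were tested in WT and 4 were called lower in Adiff, beside 9.24% of all genes, with none called higher. *Itga9*, an alpha chain, had a log2 difference of -2.07, *Itgb5* of -1.54, *Itga1* of -1.37 and *Itgb2* of -1.11, the last with means under 2 TPM in both fractions and called in 4 of 9 alternatives (-0.90 without replicate 1 of Adiff). *Itga3*, another laminin-binding alpha chain, was 4.88 TPM in Aundiff and 6.12 TPM in Adiff (limma adjusted p = 0.436), and *Itgb4*, the other partner of integrin alpha6, 2.67 and 4.55 TPM (limma adjusted p = 0.258). Of the laminins, 1 of 6 tested fell, *Lamb1*, by 2.23 from 129 to 26.9 TPM. Of the proteins that act on integrins from inside the cell or beside them, *Ilk* (1.05) and *Itgb1bp1* (1.31), whose product binds the beta1 tail, rose and *Parva* (-1.56) and *Rsu1* (-1.27) fell. *Ilk* was not called under median-of-ratios scaling (0.88), nor *Parva* without replicate 2 of Aundiff (-1.24, limma adjusted p = 0.0667). After Win18446 only *Itga7* (1.01) among integrins was called, higher in PRC1cKO, and *Tln2* (-1.18), a talin, was called lower. Each lost its call in some alternatives, *Itga7* without replicate 1 of PRC1ctrl (0.93) or replicate 2 of PRC1cKO (0.89) and *Tln2* under median-of-ratios scaling (-0.98) or without replicate 1 of PRC1cKO (-0.87). *Lamc1*, a laminin chain, was the only gene of the 11 lists called in the interaction (-1.55, limma adjusted p = 0.0495), and it was called in 2 of 16 alternatives and in none that left out a library (-1.35 to -1.74).

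Around E-cadherin, *Cdh2*, N-cadherin, rose in WT Adiff by 1.34, from 6.13 to 16.9 TPM, while *Cdh1* was lower. *Jup*, plakoglobin, rose by 1.12 (0.95 and not called under median-of-ratios scaling) and *Cdh4* fell by 1.44, and the other catenins were not called. *Ctnnb1*, beta-catenin, was 253 TPM in Aundiff and 274 TPM in Adiff, and *Ctnnd1*, p120-catenin, 39.2 and 39.7 TPM. After Win18446 *Afdn*, afadin, fell by 1.27 in PRC1cKO (limma adjusted p = 0.00291), and *Ctnnd1* had a difference of -0.48 (limma adjusted p = 0.0263), under the fold threshold.

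Among 21 tested tetraspanins, the family of CD9, 2 rose and 3 fell in WT Adiff, beside 11.1% and 9.24% of all genes, and the 3 include *Cd9*, a target of the gate. *Cd63*, a tetraspanin of late endosomes, rose by 2.93, from 23.8 to 188 TPM. *Tspan4* rose by 1.68, *Tspan8* fell by 3.83 and *Tspan31* by 1.35. *Cd63* was also called higher in PRC1cKO, without treatment (44.1 and 57.1 TPM in PRC1ctrl, 186 and 232 TPM in PRC1cKO, log2 difference 2.03, limma adjusted p = 0.0411) and after Win18446 (22.9 and 19.3 TPM, then 64.6 and 62.0 TPM, 1.55, limma adjusted p = 0.00176). It was the only gene of the 11 lists called in the untreated comparison, in 8 of 12 alternatives, and there its call was lost without either PRC1cKO replicate (2.19, limma adjusted p = 0.0972, without replicate 1, and 1.87, limma adjusted p = 0.161, without replicate 2). In WT and after Win18446 it was called in all 12 alternatives. *Cd81*, the nearest relative of *Cd9*, had differences of 0.51 in WT and 0.43 after Win18446, under the fold threshold. In untreated mice it was 10.95 and 45.6 TPM in PRC1ctrl and 47.3 and 124 TPM in PRC1cKO, a difference of 1.72 that was not called (limma adjusted p = 0.408). *Cd82* was not called in WT or after Win18446, and it was not tested in untreated mice, where only 1 library reached 1 TPM. Of the proteins that associate with CD9, *Rdx*, radixin, rose by 1.26 and *Msn*, moesin, fell by 1.39 in WT Adiff.

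The list around EPCAM had 3 of 11 tested genes called higher in WT Adiff and none lower. They included *Epcam* and *Adam10* (1.22), a protease of the cell surface. *Cldn7*, a claudin that binds EPCAM, was at most 3.19 TPM in any library. Of KIT signalling, 4 of 21 tested genes were called higher and 3 lower in WT, beside 11.1% and 9.24% of all genes, and the 4 include *Kit*, a target of the gate. *Sh2b2*, an adaptor, rose by 2.61, from 1.11 to 12.03 TPM, and the kinases *Pik3cd* and *Fyn* fell by 1.95 and 1.68. *Kitl*, which encodes the ligand, was between 0.19 and 4.90 TPM in the 12 libraries and was not called. After Win18446, when *Kit* rose, *Pik3ca* and *Pik3cd* fell by 1.03 and 1.02 in PRC1cKO, close to the threshold of 1. Under median-of-ratios scaling neither was called (-0.83 and -0.82), nor was *Pik3ca* without replicate 1 of PRC1ctrl (-0.82) or replicate 2 of PRC1cKO (-0.81), or *Pik3cd* without replicate 2 of PRC1ctrl (-0.88) or replicate 1 of PRC1cKO (-0.92).

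Other surface proteins of undifferentiated spermatogonia, 10 of 12 tested, held 1 gene called higher and 3 lower in WT Adiff. *Ret* fell by 4.05 and *Gfra1*, its co-receptor for GDNF, by 3.87, and *Adgra3* rose by 1.33. After Win18446 *Lifr*, a cytokine receptor, fell by 1.40 in PRC1cKO. Of the immunoglobulin superfamily adhesion proteins, the family of *Thy1* and *Mcam*, *F11r* fell by 2.14 and *Cadm4* rose by 1.07 in WT Adiff (not called without replicate 1 of Aundiff, 0.78, or replicate 2 of Adiff, 0.89), and *Chl1* fell by 1.10 after Win18446 (-0.53 and not called under quantile normalization, limma adjusted p = 0.0723). Genes that build the GPI anchor of THY1 had 1 of 23 tested called higher in WT, *Pigo* (1.06, and 0.90 and not called under median-of-ratios scaling), and a median log2 difference of 0.43 beside 0.15 for all tested genes, while *Thy1* itself fell.

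**Figure D5:**
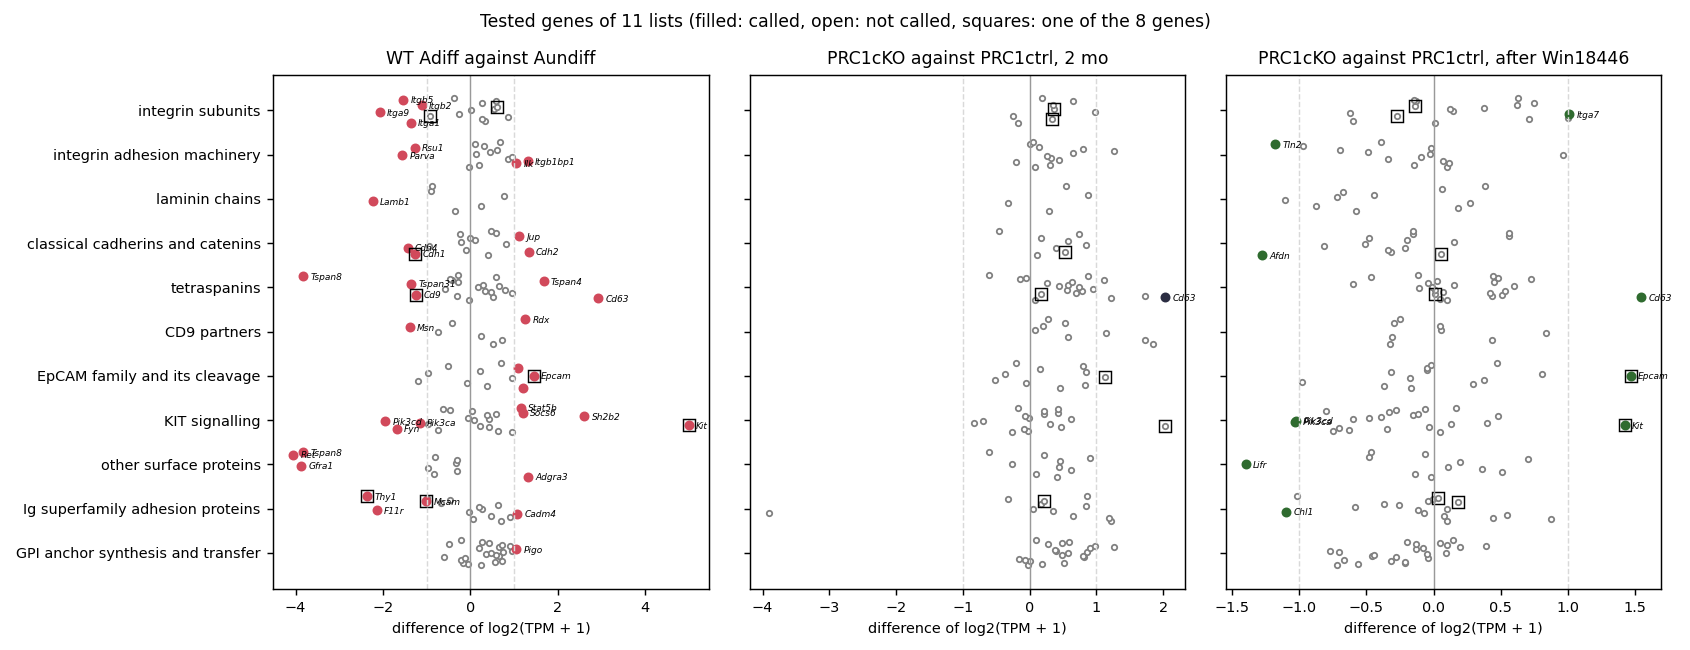
Differences of log2(TPM + 1) of the tested genes of 11 lists (rows) in 3 comparisons (panels), filled where called and with squares around the 8 genes, with names beside called genes in all rows but that of the EpCAM family, where only *Epcam* is named. *Cd63* is called higher in all 3 panels, and the middle panel has no other called gene.

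Genes whose pattern over the 12 libraries was most like each of the 8 were found by Pearson's correlation of log2(TPM + 1), among 10991 genes (10992 for *Thy1*) with a mean of at least 5 TPM. The libraries share kits and treatments, so this is a description. Nearest to *Kit* were *Pcsk1n* (r = 0.987), *Arhgef26* (0.981) and *Slc16a10* (0.978), and nearest to *Epcam* were *Rhox2c* (0.965), *Ndufa1* (0.962) and *Ccnb1* (0.960). *Ccnb1* encodes cyclin B1. For *Cdh1* they were *Ccnjl* (0.993), *Pld2* and *Tmco4*, for *Itga6* *Grhl2* (0.985), *Inafm1* and *Rasgef1b*, and for *Itgb1* *Slc7a6os* (0.985), *Mapk8* and *Vkorc1l1*. For *Cd9* they were *Commd10* (0.982), *Pls3* and *Snapin*, for *Mcam* they included *Abr* (0.985) and *Lrrc56*, and for *Thy1* *Ddx3x* (0.938), *Gprc5c* and *Tmem132c*. Within the 8, the closest pair was *Cdh1* and *Itga6* (r = 0.97), and *Cd9* and *Itgb1* were the most opposed (r = -0.83). *Epcam* was opposed to *Itga6* (r = -0.80). The part of the library kit in these correlations was not tested.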

How the data were processed

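Expression was deposited by the authors as a single table of TPM made with RSEM 1.3.3 (GRCm38, mm10). The submitters' processing notes also name Trim Galore 0.6.6, HISAT2 2.2.1, SAMtools 1.9 and HTSeq 1.6.0, and DESeq2 1.28.1, which the authors ran on counts that were not used here. As every library sums to the same TPM total, a gene can change its share through others.

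Columns were matched to libraries by name. The test was limma 3.58.1 (R 4.3.3; two-sided, variances moderated with the trend and robust settings) on log2(TPM + 1). Genes entered a comparison when 2 or more of its libraries reached 1 TPM, and p-values were adjusted by Benjamini-Hochberg over all of them. Calls required an adjusted p below 0.05 and an absolute log2 difference above 1. The fit was tested on simulated data. Figures and tables were made with Python 3.11.15, pandas 2.3.3 and matplotlib 3.10.9.

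Named genes were the 8 members, the 3 genes most correlated with each, at most 4 called genes of each list per comparison, by size, marker genes of high TPM and preset partners (*Kitl*, *Itgb4*, *Itga3*, *Ctnnb1*, *Ctnnd1*, *Cd81*, *Cd82*, *Cldn7*), with *Ring1* and *Rnf2* to check the labels. Some genes named by the rule are left out of the text. Members and lists were chosen with earlier results of these data known. Alternatives were a pseudocount of 0.1, other filters, median-of-ratios and quantile scaling, a replicate block, a fit over 12 libraries, plain moderation and leaving out each library.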

Additional observations from a re-analysis of the deposited data

Results flagged for a closer look

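*Itgb1*, the beta1 chain of the laminin receptor, was flagged because its libraries moved in opposite directions in the 2 PRC1 comparisons, without overlap in either. It was higher in both untreated PRC1cKO libraries (52.5 and 55.6 TPM) than in both PRC1ctrl libraries (34.1 and 51.1 TPM), and lower in both PRC1cKO libraries after Win18446 (98.6 and 96.2 TPM) than in PRC1ctrl (116 and 99.5 TPM). The interaction was -0.50 on the log2 scale (limma adjusted p = 0.392), which did not pass the threshold, and under median-of-ratios scaling the difference after Win18446 was 0.07.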

How the results depend on the processing

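After Win18446 *Kit* and *Epcam* were called in all alternatives. In WT the number of members called, 6 with the antibody targets, was 5 with a mean TPM of at least 5 (where *Thy1* was not tested) and in the fit over all 12 libraries (where *Mcam* had an adjusted p of 0.0854 in limma), 7 under median-of-ratios scaling and quantile normalization (where *Itga6* was called, at -1.09 and -1.10), and 4 to 6 when each library was left out, since *Thy1* could not be tested without an Aundiff library and *Mcam* was not called without replicate 2 of Aundiff or replicate 1 of Adiff. In untreated mice it was 1 under median-of-ratios scaling and 1 under quantile normalization (*Kit*), 2 in the fit over all 12 libraries (*Kit* and *Epcam*), and 0 in the others without the block. In the interaction it was 1 under quantile normalization, *Epcam* at 1.31 (limma adjusted p = 0.0182).

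The replicate numbers of the labels state no shared animal or day, and deviations of same-numbered libraries correlated at 0.16 in WT, 0.38 in untreated mice and 0.12 after Win18446. With a replicate block, 2 members were called in untreated mice (*Kit*, limma adjusted p = 0.00045, and *Epcam*, 0.000761), and no other member's call changed. It took the genes called there from 301 to 2172. Other counts over all genes that moved by over 1.5 times were, in untreated mice, 0 without a filter, 96 with a mean TPM of at least 5, 850 under median-of-ratios scaling, 702 under quantile normalization, 1711 in the fit over all 12 libraries and 78 to 168 without each library. They were 955 after Win18446 with a mean TPM of at least 5 (2017 as tested) and 1189 to 2120 without each library. For the interaction (1420 as tested) they were 469 with a pseudocount of 0.1, 787 without a filter, 176 with a mean TPM of at least 5 and 21 to 1436 without each library.

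Among uncalled differences, median-of-ratios scaling turned the sign in untreated mice for *Cd9* (-0.11) and *Mcam* (-0.041), after Win18446 for *Itgb1* (0.070), and in the interaction for *Cd9* (0.48), *Cdh1* (0.027), *Itga6* (0.015), *Itgb1* (0.13) and *Mcam* (0.59). Quantile normalization turned it in the interaction for *Cd9* (0.075) and *Mcam* (0.34). Leaving out each library gave ranges that crossed 0 in untreated mice for *Cd9* (-0.20 to 0.54) and *Mcam* (-0.48 to 0.92), after Win18446 for *Thy1* (-0.17 to 0.24), *Cd9* (-0.075 to 0.099) and *Cdh1* (-0.044 to 0.15), and in the interaction for *Cd9* (-0.53 to 0.21) and *Mcam* (-0.74 to 0.66). Of 398 member differences under alternatives, 363 kept direction and call, 9 gained a call, 3 lost one and 23 changed sign. The cause of these changes was not tested. Of 492 values of called list genes under alternatives, 433 kept the call and 59 lost it. Counts of called genes in the lists moved by over 1.5 times in 107 of 572 cases. TPM hides read depth, and 2 libraries a group limit the precision of every value.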
